A study of Homo sapiens with 2 samples.

Results

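Interleukin-6-type cytokines signal through the shared receptor chain gp130, the product of IL6ST. A cytokine such as interleukin-11 or LIF first binds its own receptor chain, gp130 is drawn into the complex, and JAK kinases bound to the receptors phosphorylate STAT3, which enters the nucleus and switches on genes that include its own inhibitor, SOCS3. In bone, interleukin-11, interleukin-6 and LIF are known to act on osteoblasts and on the formation of osteoclasts.

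The family followed here has 10 genes, of 13130 with a tested probe on the arrays: the ligands IL11, LIF, IL6 and CLCF1, the receptor chains IL6ST, LIFR, OSMR, IL11RA and IL6R, and the feedback inhibitor SOCS3. They were chosen around the low ratios of IL11 and LIF in the very comparison reported here, so that their values are given as a description without a test. Every usable spot annotated with 1 of these genes was taken, which gave 25 spots of 23 cDNA clones, and all 23 clones passed the filter on dim probes.

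Saos-2, a human osteosarcoma cell line, was compared with Saos-2-2, a line derived from it that stably expresses a short hairpin RNA against TSG101. TSG101 is a component of the endosomal sorting machinery. Both lines were grown in the same medium with fetal bovine serum, and RNA of 2 biological replicates was hybridised to 2 spotted cDNA arrays, each carrying both lines. By the study's methods, stable lines were cloned from colonies that resisted puromycin and showed GFP fluorescence, and Saos-2-2 is the line on these arrays. A line with a control hairpin or an empty vector was not on these arrays, so effects of cloning, of selection and of the hairpin cannot be told apart. The Cy5 channel held the hairpin line and the Cy3 channel its parent each time, and for each clone a dye effect and a difference between the lines cannot be told apart either. Since RNA came from whole cultures, fewer cells that express a gene and less of its RNA per cell cannot be told apart.

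All ratios below are log2(Saos-2-2 / Saos-2) after background correction and loess normalization, so that -1 is a 2-fold lower level in Saos-2-2. SD is over the 2 arrays. Net intensity is the mean foreground of a spot minus its local background, in scanner units before normalization. The median spot was 3.73 to 4 times its background, and 0 spots were saturated. TSG101 was at -0.48 on replicate 1 and -0.24 on replicate 2 (mean -0.36, standard error 0.12, limma adjusted p = 0.201). Across probes, the log2 ratios of the 2 arrays correlated at r = 0.488, a description over probes that share both arrays. In limma, 0 probes were higher (0.0%) and 0 lower (0.0%) at an adjusted p of 0.05, while before adjustment 4665 (13.5%) were higher and 3365 (9.7%) lower at a p under 0.05.

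The Saos-2-2 channel of the 2 arrays differed strongly in genes of bone matrix. COL1A2, a chain of type I collagen, was at -3.23 on replicate 1 and 3.33 on replicate 2. Its signal over background moved from 4.91 to 337 in Saos-2-2 and only from 53.6 to 41.8 in Saos-2. SPARC, COL1A1 and SPP1, which encode other matrix proteins, also had opposite signs, with ratios of -2.22 and 2.27, -2.91 and 1.17, and -0.91 and 4.20. IBSP, bone sialoprotein, and ALPL, the alkaline phosphatase of osteoblasts, were instead the 2 markers below 0 on both arrays, at -1.67 and -0.51, and at -1.71 and -0.13. Of 9 osteoblast markers 8 were measured, and their summed signal over background was 309 to 361 in Saos-2 but 77.3 to 796 in Saos-2-2. RUNX2, the transcription factor that defines the osteoblast lineage, was steady at 0.03 and -0.08. The summed signals of other cell types moved far less, at 41.5 to 41.9 in Saos-2 and 34.4 to 53.9 in Saos-2-2 for 5 of 5 epithelial markers. They were 25.5 to 25.7 and 20.7 to 22.9 for 4 of 5 leukocyte markers, and 5.92 to 6.47 and 5.12 to 7.12 for 2 of 3 endothelial markers. Of the defining markers of these types, PTPRC was 2.54 to 2.71 times background over both lines and PECAM1 1.67 to 2.05 times. EPCAM, the epithelial one, instead moved from 7.15 to 18.6 times background in Saos-2-2 and only from 10.0 to 9.91 in Saos-2. Its log2 ratio was below 0 on replicate 1 and above 0 on replicate 2, as for COL1A2, so the difference between the arrays was not confined to genes of bone matrix. The part of the difference between the cultures in the ratios below was not tested. For that reason most ratios are given for each array, with some further clones by their mean only.

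Among the ligands, IL11 was the lowest member and LIF the next. Interleukin-11 acts on bone, platelet precursors and fibroblasts through IL11RA and gp130. Its clone, IMAGE:1681719, had a net intensity of 653 in the parent and 85 in Saos-2-2 on replicate 1, and of 838 and 137 on replicate 2. Both Saos-2 values were far above both Saos-2-2 values, and the Saos-2-2 spots were still 2.67 and 3.54 times their background. The log2 ratios were -2.36 and -2.38 (mean -2.37, SD 0.02), 5.17-fold lower in Saos-2-2. After this processing, the arrays that disagreed by several log2 units on collagen differed little on IL11. Its deposited log2 ratios were further apart, at -3.27 and -3.03. The gene lies at chr19:55364382-55370463 on the minus strand of GRCh38.p14.

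The 250 bases before the IL11 start site (RefSeq, GRCh38.p14, chr19:55370464-55370713, minus strand) are shown because IL11 had the lowest ratio in the family. Capitals mark letters that match the AP-1 motif TGANTCA, read by JUN and FOS dimers, or the SMAD box CAGAC, the core read by SMAD proteins, on either strand.
IL11: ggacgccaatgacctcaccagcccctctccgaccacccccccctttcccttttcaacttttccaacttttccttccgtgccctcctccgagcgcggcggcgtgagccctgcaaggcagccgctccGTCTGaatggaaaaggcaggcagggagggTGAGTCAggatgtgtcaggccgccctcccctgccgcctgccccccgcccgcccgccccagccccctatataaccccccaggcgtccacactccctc
The AP-1 letters began 96 bases before the start site and the SMAD box letters 125 bases before it, and letters of the STAT motif TTCNNNGAA did not occur in this window.

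LIF, leukemia inhibitory factor, signals through LIFR paired with gp130. It had 1 clone, IMAGE:153025, spotted 3 times. The 3 spots had net intensities of 110, 204 and 206 in Saos-2 against 30, 89 and 82 in Saos-2-2 on replicate 1. On replicate 2 they were at 74, 142 and 176 against 17, 38 and 78. Within each spot and array Saos-2 was the brighter line, although the dimmest Saos-2 spot lay below the brightest Saos-2-2 spots. The averaged log2 ratios were -1.02 and -1.19 (mean -1.11, SD 0.12), 2.15-fold lower. The lowest Saos-2-2 spot was only 1.36 times its background, and the clone has the code 1 in a column headed Failed, whose codes the files do not explain. The gene lies at chr22:30240453-30246759 (GRCh38.p14).

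CLCF1, a ligand of the CNTF receptor complex that also recruits LIFR and gp130, was lower by less. Its clone IMAGE:1664309 gave net intensities of 95 in the parent and 47 in Saos-2-2 on replicate 1, and of 133 and 90 on replicate 2. The log2 ratios were -0.70 and -0.62 (mean -0.66, SD 0.05), 1.58-fold lower. The arrays hardly differed after this processing, but the deposited log2 ratios were -1.28 and -0.88. The Saos-2-2 value of replicate 2 came within a few units of the Saos-2 value of replicate 1. IL6, which encodes interleukin-6 itself, was close to even. Its clone IMAGE:310406 had net intensities of 584 and 534 on replicate 1 and 449 and 356 on replicate 2. The ratios of 0.00 and -0.41 (mean -0.20, SD 0.29) left the mean within 1 SD of 0, and the clone has the code 2 in the column headed Failed.

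**Figure D1:**
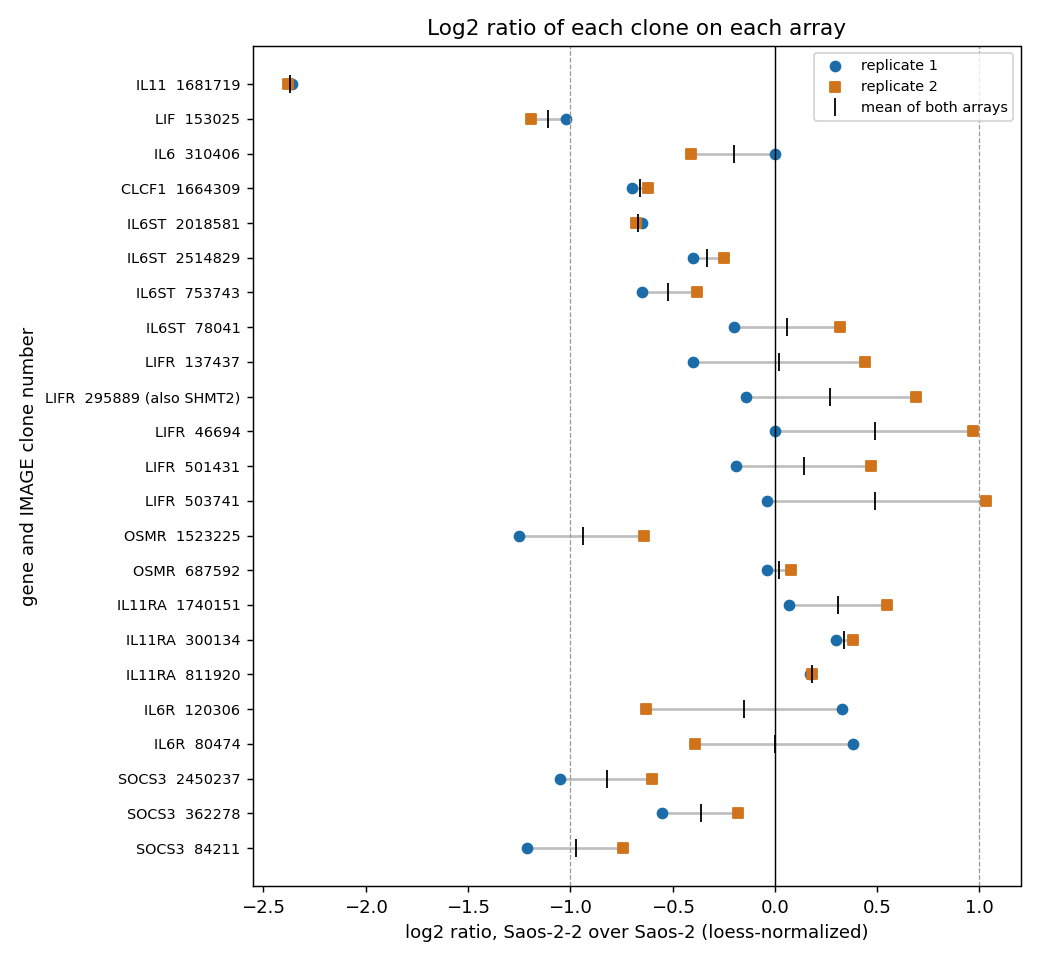
Log2 ratio of Saos-2-2 over Saos-2 for each of the 23 clones of the family on replicate 1 (circles) and replicate 2 (squares). Bars mark the mean, dashed lines a 2-fold difference. IL11 and LIF lie beyond the lower dashed line on both arrays, and all 5 LIFR clones lie further right on replicate 2.

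The receptor chains did not share a direction. Of 16 receptor clones, 4 were below 0 on both arrays (35.6% of all tested probes were), 4 above 0 on both (35.2%) and 8 of opposite sign (29.3%). IL6ST encodes gp130, the chain that the 4 ligands above share, and it had 4 clones. Clone IMAGE:2018581 was at -0.65 and -0.68 (mean -0.67, SD 0.02), from net intensities of 257 and 144 on replicate 1 and 272 and 174 on replicate 2. Clone IMAGE:753743 was at -0.65 and -0.38 (mean -0.52, SD 0.19) and IMAGE:2514829 at -0.40 and -0.25 (mean -0.33, SD 0.11). The brightest clone, IMAGE:78041, instead gave -0.20 and 0.32 (mean 0.06, SD 0.37), with net intensities of 349 and 280, then 340 and 475. Clones of the same gene thus disagreed, and a direction for gp130 depends on the clone read.

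LIFR encodes the chain that binds LIF and pairs with gp130. Its brightest clone, IMAGE:503741, had net intensities of 882 in the parent and 766 in Saos-2-2 on replicate 1, and of 575 and 1285 on replicate 2. The order of the lines thus reversed between the arrays, with log2 ratios of -0.04 and 1.03 (mean 0.49, SD 0.76). All 5 LIFR clones behaved alike, at -0.40 to 0.00 on replicate 1 and 0.44 to 1.03 on replicate 2. Such a gap of at least 0.5 upwards from replicate 1 to replicate 2 was seen for 7.44% of all probes. The means ran from 0.02 to 0.49 with SDs of 0.46 to 0.76, so that each mean lay within 1 SD of 0. Clone IMAGE:295889 is also annotated to SHMT2, and IMAGE:503741 has the code 2 in the column headed Failed.

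OSMR, which pairs with gp130 to bind oncostatin M, had 2 clones that differed. IMAGE:1523225 had net intensities of 200 and 61 on replicate 1 and 102 and 67 on replicate 2. Saos-2 was the brighter line each time, and the log2 ratios were -1.25 and -0.64 (mean -0.94, SD 0.44), 1.92-fold lower in Saos-2-2. IMAGE:687592 was at -0.04 and 0.08 (mean 0.02, SD 0.08), but was dim, with net intensities of 17 to 29 over both channels and arrays.

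The receptor chains that recognise interleukin-11 and interleukin-6 themselves had no clone below 0 on both arrays. The 3 clones of IL11RA were the only ones in the family, beside a LIFR clone whose ratio on replicate 1 was 0.00, that were above 0 on both. IMAGE:811920 was at 0.17 and 0.18 (mean 0.18), IMAGE:300134 at 0.30 and 0.38 (mean 0.34, SD 0.06), and IMAGE:1740151, which has the code 2 in the Failed column, at 0.07 and 0.55 (mean 0.31). The last had an SD of 0.34, so that its mean lay within 1 SD of 0, and IMAGE:811920 ran from 0.08 to 0.22 with the processing. Of all tested probes, 35.2% were above 0 on both arrays. The IL11RA means were thus on the other side of 0 from IL11, at a far smaller distance. The 2 clones of IL6R went the opposite way from those of LIFR between the arrays. They were at 0.33 and 0.38 on replicate 1 and at -0.63 and -0.39 on replicate 2, with means of -0.15 and 0.00 (SD 0.68 and 0.54). A gap of at least 0.5 downwards was seen for 6.47% of all probes.

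SOCS3 binds gp130 and the JAK kinases and blocks further signalling. Its 3 clones were below 0 on both arrays. The brightest clone, IMAGE:362278, had net intensities of 806 in the parent and 487 in Saos-2-2 on replicate 1 and of 943 and 869 on replicate 2, and log2 ratios of -0.55 and -0.18 (mean -0.36, SD 0.26). IMAGE:2450237 had net intensities of 1057 and 440, then 988 and 674, and ratios of -1.05 and -0.60 (mean -0.82, SD 0.32). IMAGE:84211 had 491 and 175, then 510 and 314, and ratios of -1.21 and -0.74 (mean -0.97, SD 0.33), 1.96-fold lower. On each clone the line with the hairpin was dimmer, and on each clone the distance was larger on replicate 1. The gene lies at chr17:78356778-78360925 (GRCh38.p14).

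**Figure D2:**
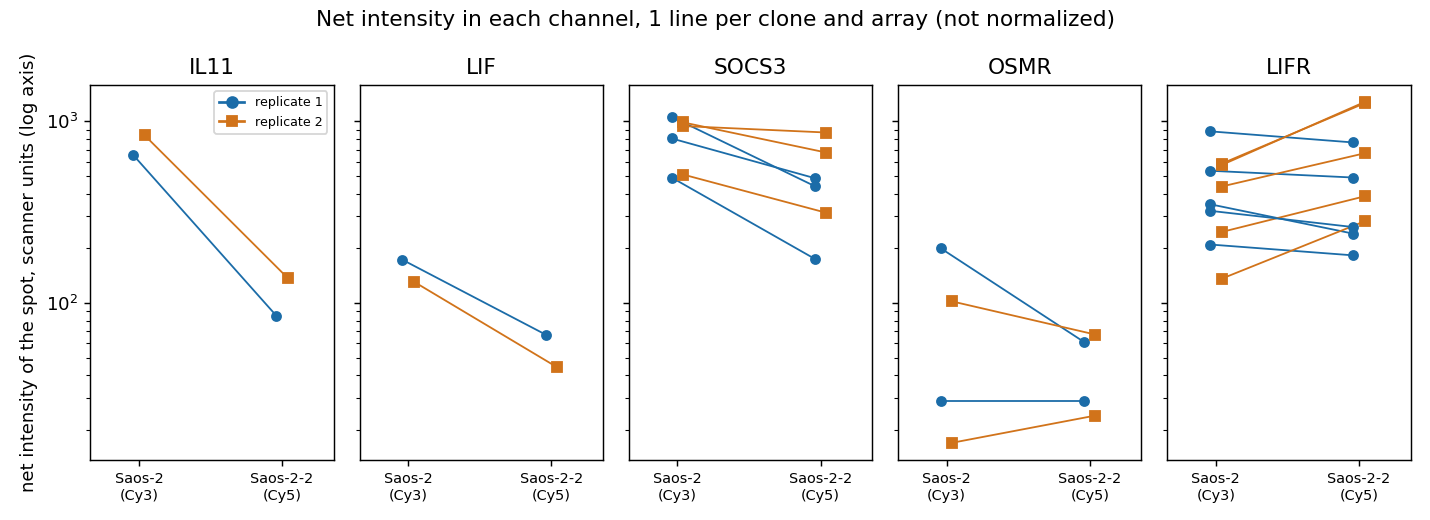
Net intensity (scanner units, log axis, not normalized) in the Saos-2 (Cy3) and Saos-2-2 (Cy5) channels, with 1 line for each clone and array. Lines of IL11, LIF and SOCS3 run downwards on both arrays, and those of LIFR downwards on replicate 1 and upwards on replicate 2. The 3 spots of LIF are averaged.

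The 250 bases before the SOCS3 start site (RefSeq, GRCh38.p14, chr17:78360926-78361175, minus strand) are shown because SOCS3 is a known target of STAT3, with capitals as above.
SOCS3: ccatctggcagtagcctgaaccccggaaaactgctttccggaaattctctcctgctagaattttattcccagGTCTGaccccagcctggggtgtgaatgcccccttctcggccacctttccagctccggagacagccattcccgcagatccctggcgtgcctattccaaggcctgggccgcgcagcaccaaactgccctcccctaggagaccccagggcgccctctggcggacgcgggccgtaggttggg
This window held SMAD box letters and neither AP-1 nor STAT letters. The 8 members with a promoter entry had 12 windows of 300 bases, from 250 before to 50 after a start site. AP-1 letters occurred in 3 of the 12, against 7.71% of 35116 windows of all genes. They lay before the start site in IL11 and after it in OSMR and IL6R. STAT letters occurred in 2, both of LIFR, against 7.66%, and SMAD box letters in 6, against 45.3%. These are matches of letters on either strand, and no match tells only that the letters are not in that window.

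Over the whole family, 10 of 23 clones were below 0 on both arrays, where 35.6% of all tested probes were, and 4 were above 0 on both (35.2% of probes). The other 9 had opposite signs (29.3%). The clones of IL11 and LIF were the 2 that were 2-fold lower on both arrays, against 0.349% of all probes. The median clone was at -0.15, and the median of all probes at -0.01. Read by the brightest clone of each gene, 5 of 10 genes were below 0 on both arrays (36.5% of all genes) and 1 above 0 on both (32.2%), with a median of -0.28. IL11, LIF, CLCF1 and SOCS3 were the 4 genes whose every clone was below 0 on both, but IL11, LIF and CLCF1 had only 1 clone each. The members were picked for this contrast, and nothing is read from these counts. On replicate 1 alone 16 of 23 clones were below 0 and on replicate 2 alone 13, against 50.2% of probes on each.

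To place the family in its pathway, other genes were read by their brightest clone and tested in limma, with p-values adjusted over all probes. None of the genes in these lists passed, so that those named below are given by values. The looser limit, a p under 0.05 before adjustment, took 11.8% of all genes as higher and 11.4% as lower in Saos-2-2. Other cytokines of this family and their receptors were mostly near even. Of 10 listed, 5 were tested, 0 met the looser limit, and their median was -0.02. EBI3, a subunit of interleukin-27, had the highest ratio, 0.31 (0.20 and 0.41, adjusted p = 0.233). CNTFR, the receptor chain that binds CLCF1 and CNTF, had the lowest, -0.27 (-0.31 and -0.23, adjusted p = 0.240). OSM, CNTF, IL27, IL31 and IL31RA had no tested probe. Interleukin-31 is related to the family but signals through IL31RA with OSMR, without gp130.

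Of 21 JAK-STAT signalling components, all measured, 0 passed, 4 were higher and 3 lower by the looser limit, and their median was -0.16. SOCS1, an inhibitor of JAK kinases related to SOCS3, was the lowest, at -0.49 and -0.95 (mean -0.72, limma adjusted p = 0.138). SOCS7, another protein of the SOCS family, was the highest at 0.49 (limma adjusted p = 0.132), though its other clones were at 0.12 and -0.33. STAT3, named for its role and not by rule, was of opposite sign on the arrays in all 3 clones. The brightest was at 0.45 and -0.62, and the others at 0.26 and -0.48 and at 0.44 and -0.59. JAK1, the kinase bound to gp130, was at 0.44 and 0.06 by its brightest clone. Its other clones were at 2.97 and 0.46, at 0.33 and -0.50, and at 0.10 and -0.38, so that they did not share a direction. The study drew a table of genes from these same arrays that lists JAK1, IL11 and the 5 genes named below as nearest to IL11, and their values here are not independent evidence.

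Of 26 genes known to respond to STAT3, 25 were measured and 0 passed, 2 were higher and 4 lower by the looser limit, and their median was -0.06. BCL3, a nuclear partner of NF-kappaB, was at -0.80 on both arrays (limma adjusted p = 0.106). SAA1, an acute-phase protein, was at -1.11 and -0.63 (limma adjusted p = 0.122). Its mean ran from -0.53 with marked spots kept to -1.81 with the deposited log2 ratios, and the stricter filter on dim probes left it out. FGA, the fibrinogen alpha chain, was at -0.38 and -0.76 (limma adjusted p = 0.152), with another clone at 0.14. FOS, an AP-1 subunit, had the highest ratio, 1.06 and 0.55 (limma adjusted p = 0.133), with another clone at 0.26. The lowest of these genes, SAA1 with a mean of -0.87, lay within the range of the SOCS3 clone means, -0.97 to -0.36. The brightest SOCS3 clone was the one at -0.36. IL11 was picked for its low ratio, so nothing is read from the distance to it.

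Of 16 transcription factors known to act at the IL11 or LIF promoter, all measured, 0 passed, 1 was higher and 3 lower by the looser limit, and their median was -0.03. The 3 lower were JUN, FOSL2 and NFKB1. JUN, a partner of FOS in AP-1, was at -0.79 and -0.66 (limma adjusted p = 0.109), and its other clone at -0.86. FOSL2, also an AP-1 subunit, was at -0.61 and -0.88 (limma adjusted p = 0.114), with other clones at -0.95, -1.05 and -0.30. NFKB1, a subunit of NF-kappaB, was at -0.93 and -0.57 (limma adjusted p = 0.121). All clones of JUN and FOSL2 had a mean below 0, in contrast to FOS, described above, which is in both lists.

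**Figure D3:**
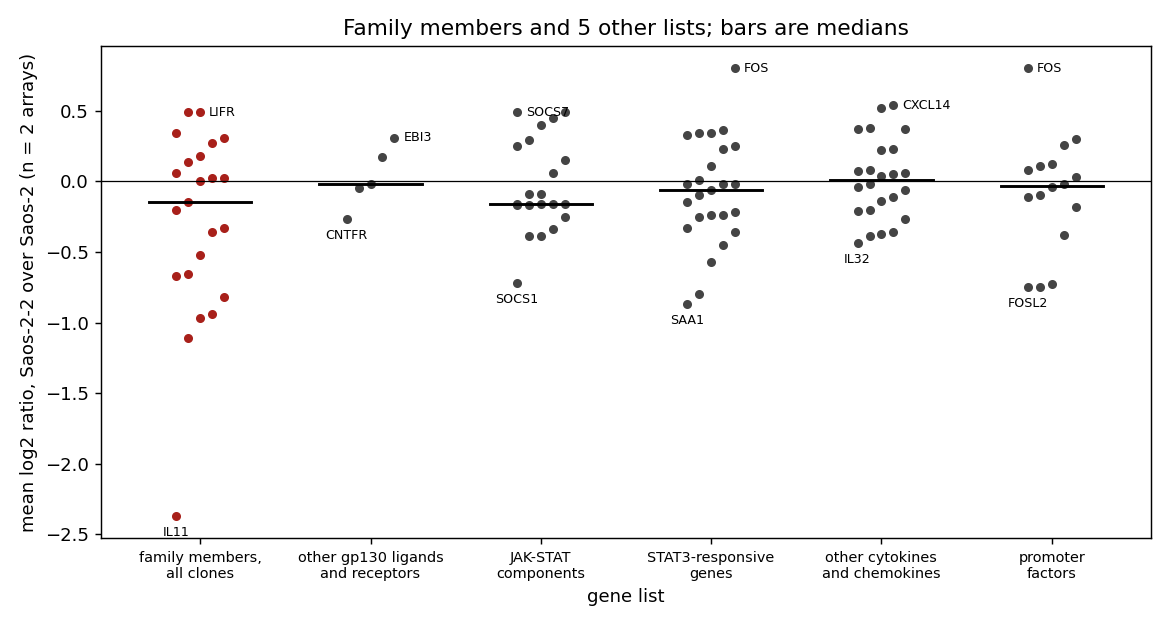
Mean log2 ratio of Saos-2-2 over Saos-2 (n = 2 arrays) for the 23 clones of the family and for the genes of 5 other lists by their brightest clone, with the median of each as a bar and the highest and lowest named. The list medians lie between -0.16 and 0.01. No listed gene comes near the -2.37 of IL11, which was picked for its low ratio.

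The genes with the pair of ratios nearest to that of IL11, by Euclidean distance over the 2 arrays only, were TGFBI (-2.46 and -2.28, distance 0.149), NRP1 (-2.18 and -2.38, distance 0.177), ZNF654 (-2.20 and -2.51, distance 0.204), SENP1 (-2.57 and -2.41, distance 0.220) and CFI (-2.16 and -2.72, distance 0.390). TGFBI encodes an extracellular matrix protein induced by TGF-beta, and NRP1 a coreceptor for VEGF and semaphorins. The other clone of SENP1 was at -0.06. Nearest to LIF were PRDX2 (distance 0.0968), CCDC40 (0.109), GSTM2 (0.115), NTN4 (0.117) and SLN (0.122), all between -0.91 and -1.24 on the arrays. PRDX2 encodes a peroxidase and NTN4 a netrin of basement membranes. Other clones of GSTM2 were at 0.10, 0.03 and -0.28, and that of PRDX2 at -0.05, whereas that of CCDC40 was at -0.90. Since each of these genes was chosen by its ratios, no test is given for them.

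The size of the low ratios moved with the processing. IL11 ran from -3.15 with the deposited log2 ratios to -2.33 with print-tip loess, and LIF from -1.92 to -0.96 with the same pair. By array, the deposited log2 ratios of LIF were -1.56 and -2.27, further apart than after the main processing. CLCF1 ran from -1.08 to -0.50, OSMR clone IMAGE:1523225 from -1.47 to -0.88, and SOCS3 clone IMAGE:84211 from -1.35 to -0.97. IL11, LIF, CLCF1, IL6 and the 3 SOCS3 clones had means below 0 under each alternative processing of both arrays that kept the clone. So did OSMR clone IMAGE:1523225 and IL6ST clones IMAGE:2018581, IMAGE:2514829 and IMAGE:753743. The 3 IL11RA clones and LIFR clones IMAGE:295889, IMAGE:46694 and IMAGE:503741 stayed above 0. IL6ST clone IMAGE:78041, LIFR clones IMAGE:137437 and IMAGE:501431, OSMR clone IMAGE:687592 and both IL6R clones changed sign under at least 1. The calls among other genes moved too. With the deposited log2 ratios 1585 probes were higher and 563 lower at a limma adjusted p of 0.05, and BCL3, SAA1, JUN, FOSL2 and NFKB1 were among the lower ones.

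**Figure D4:**
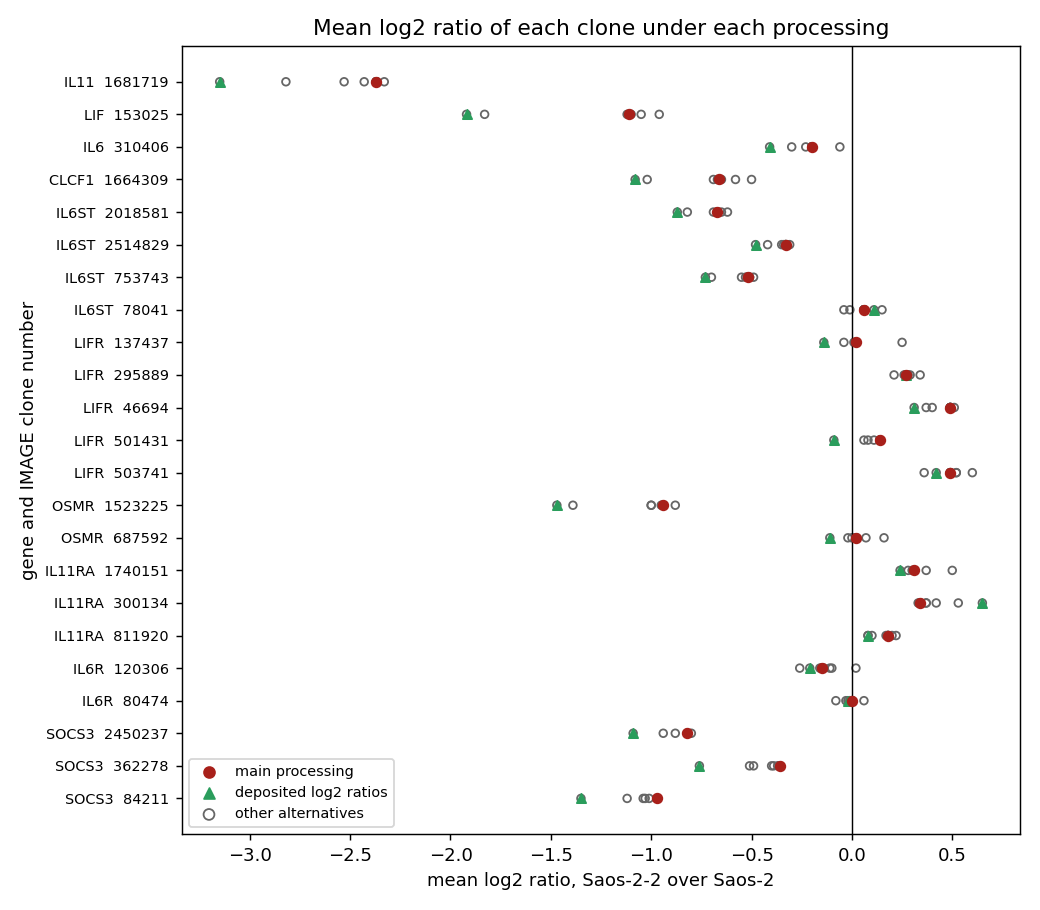
Mean log2 ratio of each clone of the family under the main processing (filled circles), the deposited log2 ratios (triangles) and the other alternatives (open circles). IL11 spans -3.15 to -2.33 and LIF -1.92 to -0.96, and neither reaches 0.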

How the data were processed

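The deposited scanner files hold, for each spot of both arrays, linear foreground and background intensities of each channel, not normalized by the authors. They also hold log2 ratios, computed by the authors after scaling of channel 2, which were used as an alternative. Agilent Feature Extraction is the software in the submitters' notes on processing, with no version. The study's legends name limma. For the background correction, the sources used here give nothing.

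In R 4.3.3 with limma 3.58.1, mean foregrounds were corrected by normexp (offset 50) and normalized by global loess within arrays. Spots of the same clone were averaged, and 226 control spots and the marked spots (3749 and 4381 of 41568) were left out. A probe was tested where 1 channel or more reached 1.5 times background on both arrays, which left 34674 probes, 22130 of them with 1 gene. The single-column limma model (prior degrees of freedom 2.75) was adjusted by Benjamini-Hochberg over all probes at 0.05. It was checked on simulated data. Whether the 2 replicates came from separate cultures is not stated beyond the word biological. Each p-value rests on the spread between these 2 samples, with 1 residual degree of freedom, and more on a variance pooled over all probes. The p-values are therefore not a measure of the spread of a single gene.

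The members and lists were chosen with earlier results of these data known. Named were all members, TSG101, list genes at an unadjusted p under 0.05 and a log2 ratio of 0.5 or more in size (with fewer than 2, the highest and lowest), and the 5 nearest patterns to IL11 and to LIF. Other genes named, such as STAT3, JAK1 and the markers, lie outside that rule. Promoters were those of RefSeq (GRCh38.p14), in which LIF and CLCF1 were not matched. Protein sequences were not analysed here. Alternatives changed the background correction, foreground statistic, normalization, dim-probe filter, marked spots, variance trend, values used, the probe standing for a gene and the arrays. Leaving out clones with a code of 1 or 2 in the Failed column was added after seeing the data. Python 3.11.15 and matplotlib 3.10.9 served for the figures.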

Additional observations from a re-analysis of the deposited data

How the results depend on the processing

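With the deposited log2 ratios, 1585 probes were higher and 563 lower at an adjusted p of 0.05 in limma, against 0 and 0. With these ratios 2 STAT3-responsive genes were lower, 1 other cytokine or chemokine was higher and 1 lower, and 3 promoter factors were lower, against 0 in each. BCL3, SAA1, JUN, FOSL2 and NFKB1 passed with them, in the same direction as before (limma adjusted p 0.0345, 0.0245, 0.0475, 0.0463 and 0.0496). The list medians became 0.13 for other gp130 cytokines and receptors, -0.26 for JAK-STAT components, -0.21 for STAT3-responsive genes, -0.11 for other cytokines and -0.18 for promoter factors. The cause was not tested.

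The JAK-STAT median was -0.11 with the median foreground. The median of other cytokines was -0.06 with print-tip loess and -0.03 with marked spots kept, against 0.01. The count of member clones 2-fold lower on both arrays, 2 in the main processing, was 1 with median centring and 1 with print-tip loess. It was also 1 without clones coded in the Failed column, because the only LIF clone is then left out.

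By a single array, which has no test, 13 to 16 of the 23 member clones were below 0, against 50.2% of probes. On replicate 1, 5 were 2-fold lower (1.29% of probes), and on replicate 2, 2 were (1.14%). The single-array medians were -0.07 to 0.08 for other gp130 genes, -0.17 to -0.11 for JAK-STAT components and -0.07 to -0.03 for other cytokines. Each array compares both lines within 1 replicate, so the fit of the log2 ratios was already paired and had no further pairs to block. The number of arrays, 2, limits the precision, and LIF, CLCF1 and 1 OSMR clone were dim.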

Other observations

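Of 28 cytokines and chemokines outside the gp130 family, 24 were tested. In limma 0 passed after adjustment at 0.05, and before adjustment 3 were higher and 4 lower at a p under 0.05. Their median was 0.01 on the log2 scale. IL32, an inflammatory cytokine, had the lowest ratio at -0.58 and -0.29 (limma adjusted p = 0.178). CXCL14, a chemokine, had the highest mean at 0.54, but was at 1.28 on replicate 1 and -0.21 on replicate 2, and its other clones were at -0.34, 0.29 and 0.27 (limma adjusted p = 0.458). The 4 lower were IL32, CCL7, CXCL8 and IL1B, and the 3 higher IL33, TNFSF10 and TSLP, named after their values were seen. CCL7 was at -0.41 and -0.37, CXCL8 at -0.34 and -0.37 with other clones from -0.05 to 0.12, and TSLP at 0.41 and 0.35. CCL2, CSF3 and IL1A, also named after their values were seen, had means of -0.04, 0.07 and 0.04. The other clone of CCL2 was at -0.31.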
